A study of Mus musculus with 6 samples.

Results

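The genes described here are 9 genes that mark B cells, taken by symbol from the deposited count table. They are Cd79a, Cd79b, Ms4a1, Pax5, Ebf1, Blk, Cd22, Bank1 and Cr2. The table held 23225 gene symbols, 9 of 9 were found in it, and 9 of 9 were among the 15958 genes that passed the filter on low counts. RNA had been sequenced from dendritic cells sorted from ID8 tumours, a mouse ovarian cancer model with ascites, at day 23 in C57BL/6 mice. The WT group had 3 libraries from wild type mice. The XBP1-KO group had 3 libraries from mice with a conditional deletion of XBP1 in CD11c positive cells. The labels give no age, no sort gate and no further allele, and they do not say that the libraries of a genotype came from separate mice. The p-values therefore measure the spread between these libraries. The columns carry no replicate number, so the libraries are called a, b and c within a genotype, and the letter pairs nothing.

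A B cell recognises antigen through surface immunoglobulin, which signals only together with the heterodimer of Cd79a and Cd79b. Ebf1 and Pax5 are the transcription factors that specify B lineage cells and keep them committed, and the genes of the receptor complex are among their targets. B cells live in the peritoneal cavity and can be found in tumours, and plasmacytoid dendritic cells share part of the B cell programme. XBP1, the factor deleted in the study, is itself needed for antibody secretion by plasma cells.

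Upstream sequence of members was read first, as a description, and a link between sequence and the levels in these libraries was not tested. The RefSeq promoter table of GRCm38.p6 held 6 of the 9 members, with 7 start sites of 300 bases each, 250 before and 50 after the start. Cd79b, Ms4a1 and Blk had no entry. The E-box CAGGTG, a site read by E proteins such as E2A, was searched on both strands and occurred at 4 of the 6 members and in 20.2% of all 32851 promoters of that length. The motif of EBF, TCCC and GGGA with any 2 bases between them, occurred at 1 of the 6 members and in 0.904% of all promoters. The windows are shown because they hold the E-box matches of those 4 members and the single EBF match, at Cd22. They run 5′ to 3′ on the strand of the gene, with the match in capitals, and CACCTG is the E-box read on the other strand. No match overlapped another.
Cd79a E-box, chr7:24897317-24897374, plus strand, 154 to 149 bases before the start: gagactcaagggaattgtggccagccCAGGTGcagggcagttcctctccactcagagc
Cd22 EBF motif, chr7:30879042-30879103, minus strand, 49 to 40 bases before the start: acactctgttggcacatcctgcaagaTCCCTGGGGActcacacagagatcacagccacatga
Cd22 E-box, chr7:30879242-30879278, minus strand, 245 to 240 bases before the start: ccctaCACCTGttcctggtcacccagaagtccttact
Bank1 E-box, chr3:136326180-136326237, minus strand, 145 to 140 bases before the start: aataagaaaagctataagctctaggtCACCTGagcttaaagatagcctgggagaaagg
Cr2 E-box, chr1:195176776-195176833, minus strand, 88 to 83 bases before the start: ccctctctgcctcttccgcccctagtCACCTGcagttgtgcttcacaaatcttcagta

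The octamer ATGCAAAT, the PU.1 motif GAGGAAGT and the unfolded protein response element TGACGTGG, to which XBP1 binds, were not found in these 7 windows. They occurred in 1.74%, 3.2% and 0.676% of all promoters. The ER stress element, CCAAT and CCACG with any 9 bases between them, was not found either and occurred in 0.119% of all promoters. A match describes letters only, and no match says only that these letters are not in these windows.

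Libraries held between 26946349 and 32709100 counts. Xbp1, the targeted gene, had 67.2, 48.7 and 76.8 CPM in WT a, b and c and 32.5, 30.9 and 40.4 CPM in XBP1-KO a, b and c. The groups did not overlap, and the quasi-likelihood test of edgeR gave an adjusted p of 0.0545. CPM are counts relative to the library's total, scaled by TMM factors that correct for composition. Genes of the dendritic cell list were read in every library, with Cd74, the chaperone chain of MHC class II molecules, at the highest level. Cd74 averaged 84376 ± 21488 CPM in WT against 69900 ± 11982 in XBP1-KO (SD, n = 3). The myeloid gene Lyz2 averaged 15673.1 and 13881.5 CPM, and the level of Cd74 alone does not identify dendritic cells. On the first principal component, with 32.3% of the variance, WT libraries lay between -38.6 and -1.66 and XBP1-KO libraries between 12.5 and 27.7. On the second principal component, with 25.9% of the variance, library b of each genotype was set off from the rest, at 32.5 (WT) and 23.4 (XBP1-KO), with the other libraries between -26.9 and -3.67.

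B cell identity genes were readable in every library and their levels were higher on average in XBP1-KO, but in edgeR's quasi-likelihood test none of the 9 passed an adjusted p of 0.05. Summed over the 9 members, the level was 376, 178 and 265 CPM in WT a, b and c and 439, 411 and 545 CPM in XBP1-KO a, b and c. Every XBP1-KO library therefore lay above every WT library, with means of 273 ± 99.6 and 465 ± 70.7 CPM (SD, n = 3). The log2 fold change was above 0 for 9 of 9 members, where 56.1% of the genes tested lay above 0, and its median was 0.80 against 0.06 over the genes tested. Called higher were 0 of 9 members, where 0.157% of the genes tested were called higher and 0.445% were called in either direction. At an unadjusted p under 0.05, 5 of 9 members were higher, against 4.59% of the genes tested. For 4 of 9 members every XBP1-KO library lay above every WT library, which held for 8.8% of the genes tested. Members share their libraries, so these counts are not independent of each other. The members were also chosen with earlier results of these data known, so the shares over all genes describe and do not test.

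The outcome of the test differed between tools. DESeq2 gave Pax5 no adjusted p and called 3 of the other members higher (Ebf1, Cd79a and Cd79b), against 0.882% of the genes to which it gave an adjusted p. limma-voom called 0 of 9, against 0.107%. Where the spread that libraries WT b and XBP1-KO b share was taken out with a term of its own, a choice made after seeing the data, edgeR called the same 3 members as DESeq2, against 0.583% of the genes tested. With those 2 libraries left out instead, edgeR called 0 of 9, and the adjusted p was 0.0704 for Cd79a, 0.115 for Ebf1 and 0.138 for Cd79b. In bulk RNA, more B cells, more RNA per B cell and RNA from other cells cannot be told apart.

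**Figure D1:**
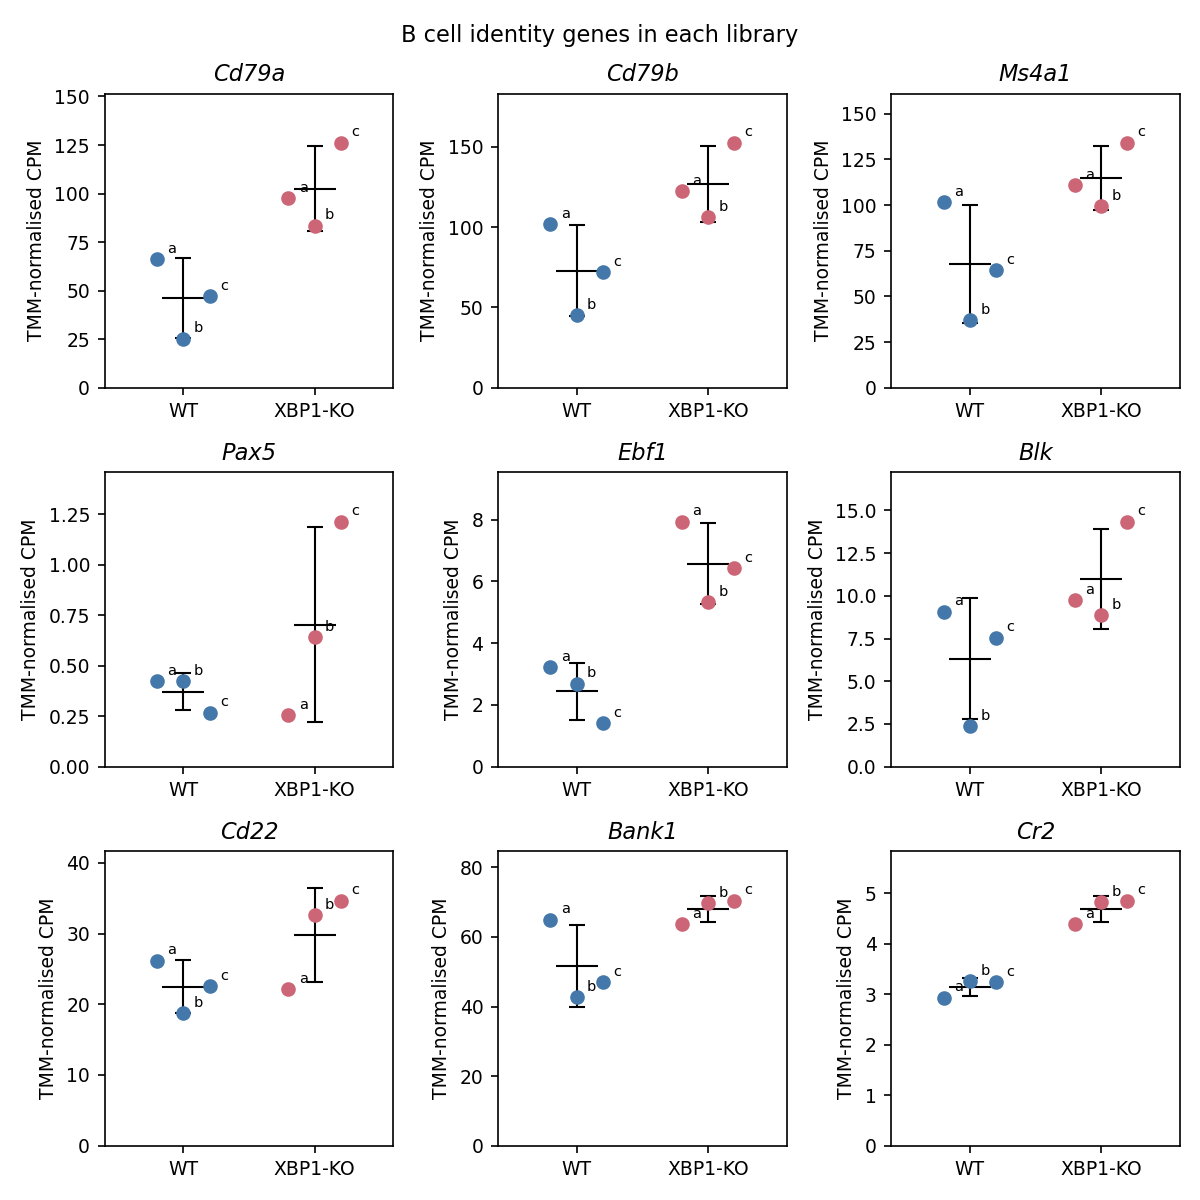
Each panel shows the TMM-normalised CPM of a B cell identity gene (y axis, from 0) in the 3 WT and 3 XBP1-KO libraries (points, with their letter), with the mean and SD of each genotype as a bar with whiskers. In Cd79a, Cd79b, Ebf1 and Cr2 the genotypes do not overlap, and library WT b is the lowest of the 6 in 6 of the 9 panels.

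The receptor partners were compared first. Cd79a, which carries a signalling tail of the receptor, had 66.3, 25.3 and 47.0 CPM in WT a, b and c and 97.8, 83.5 and 126 CPM in XBP1-KO a, b and c. WT b was lowest and XBP1-KO c highest, and the genotypes did not overlap. Cd79a had a log2 fold change of 1.15 (SE 0.34, 95% interval 0.34 to 1.96), and the adjusted p from edgeR was 0.228. Its partner Cd79b had 102, 45.2 and 71.8 CPM in WT and 122, 106 and 153 CPM in XBP1-KO. The order of the libraries was that of Cd79a, and WT a lay just below XBP1-KO b. Cd79b had a log2 fold change of 0.80 (SE 0.27, 95% interval 0.18 to 1.43), with an adjusted p of 0.264. Without library WT b, the log2 fold change was 0.83 for Cd79a and 0.53 for Cd79b, and without WT a it was 1.50 and 1.12.

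The proportion of the 2 partners was then compared. The ratio of Cd79a to Cd79b in CPM was 0.651, 0.560 and 0.655 in WT a, b and c and 0.799, 0.787 and 0.827 in XBP1-KO a, b and c. The ratio does not depend on library scaling, and its groups did not overlap, at 0.622 ± 0.0541 and 0.804 ± 0.0205 (SD, n = 3). An exact two-sided permutation test over libraries gave p = 0.1, the smallest that 3 against 3 allows. This was the only ratio to Cd79b, of 8 members set against it, whose groups did not overlap. With no difference between genotypes each ratio would separate with a probability of 0.1, so 1 of 8 does not establish a shift. Ratios to Cd79b were computed after the levels had been seen.

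**Figure D2:**
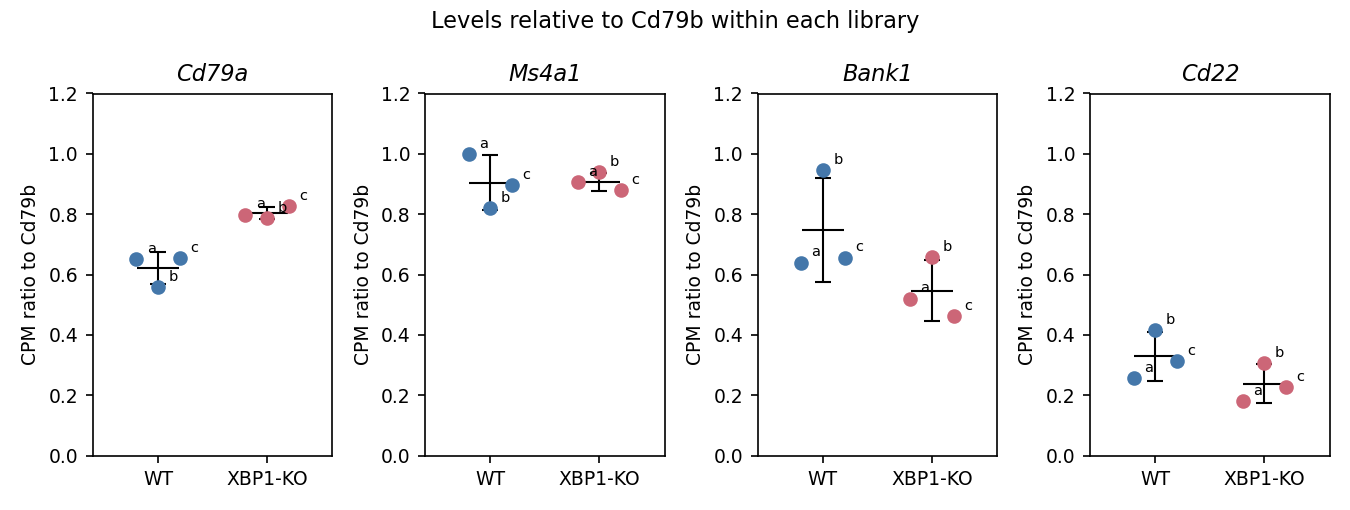
Points show the CPM of Cd79a, Ms4a1, Bank1 and Cd22 divided by the CPM of Cd79b in the same library (y axis, from 0), by genotype, with the mean and SD. Cd79a lies between 0.560 and 0.655 in WT and between 0.787 and 0.827 in XBP1-KO, while the other 3 genes overlap between the genotypes.

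Among the surface proteins, Ms4a1 encodes CD20, a membrane protein of mature B cells. It had 102, 37.0 and 64.3 CPM in WT a, b and c and 111, 99.6 and 134 CPM in XBP1-KO a, b and c. WT a lay above XBP1-KO b, so the groups overlapped. Ms4a1 had a log2 fold change of 0.76 (95% interval -0.05 to 1.58), with an adjusted p of 0.422 in edgeR. Its ratio to Cd79b was 0.905 ± 0.09 in WT and 0.908 ± 0.0299 in XBP1-KO (SD, n = 3). Its fold change depended on WT libraries: it was 0.45 without WT b and 1.18 without WT a.

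Cd22, an inhibitory lectin that restrains receptor signals, had 26.2, 18.8 and 22.6 CPM in WT and 22.2, 32.6 and 34.7 CPM in XBP1-KO. XBP1-KO a lay within the WT range and the other XBP1-KO libraries lay above it. Cd22 had a log2 fold change of 0.41 (95% interval -0.02 to 0.83), with an adjusted p of 0.416. The estimate for Cd22 was 0.27 without WT b and 0.26 without XBP1-KO c. Cr2 encodes the complement receptor CD21, which lowers the threshold of the B cell receptor. It had 2.93, 3.26 and 3.24 CPM in WT and 4.39, 4.82 and 4.85 CPM in XBP1-KO, with no overlap and the narrowest spread within genotypes of the 9 members. Its log2 fold change was 0.58 (95% interval 0.00 to 1.15), with an adjusted p of 0.388. Cr2 rested on 83 to 97 counts in a WT library and 120 to 160 in an XBP1-KO library.

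Blk and Bank1 act inside the cell. Blk, a kinase of the Src family near the receptor, had 9.08, 2.37 and 7.55 CPM in WT and 9.74, 8.87 and 14.4 CPM in XBP1-KO. WT a exceeded XBP1-KO b, and the 3.83-fold range among WT libraries was the widest WT range of the 9 members. For Blk the log2 fold change was 0.80 (95% interval -0.17 to 1.76), with an adjusted p of 0.480. The Blk estimate was 0.38 without WT b and 0.53 without XBP1-KO c. Bank1, a scaffold protein of B cells, had 65.0, 42.7 and 47.1 CPM in WT and 63.6, 69.8 and 70.5 CPM in XBP1-KO. XBP1-KO a lay just below WT a, so the groups overlapped. Its log2 fold change of 0.40 (95% interval 0.05 to 0.75) was the smallest of the 9, with an adjusted p of 0.319. Leaving out WT b gave 0.25 for Bank1.

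The transcription factors differed in level and in how firmly they could be read. Ebf1, which opens the B cell programme, had 3.21, 2.69 and 1.40 CPM in WT and 7.94, 5.33 and 6.43 CPM in XBP1-KO. Again the genotypes did not overlap, and XBP1-KO a rather than c was highest. Its log2 fold change of 1.43 (SE 0.33, 95% interval 0.71 to 2.15) was the largest of the 9, with an adjusted p of 0.0838 in edgeR. Without a filter on low counts the adjusted p was 0.0261. Pax5, the factor that holds B cells to their lineage, had only 12, 12 and 8 counts in WT and 7, 19 and 40 in XBP1-KO. XBP1-KO a was the lowest of the 6 libraries and XBP1-KO c the highest, at 0.256 and 1.21 CPM. The log2 fold change of Pax5 was 0.92 (95% interval -0.56 to 2.40), or 0.25 without XBP1-KO c, with an adjusted p of 0.605, and at this depth a difference was not detectable.

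**Figure D3:**
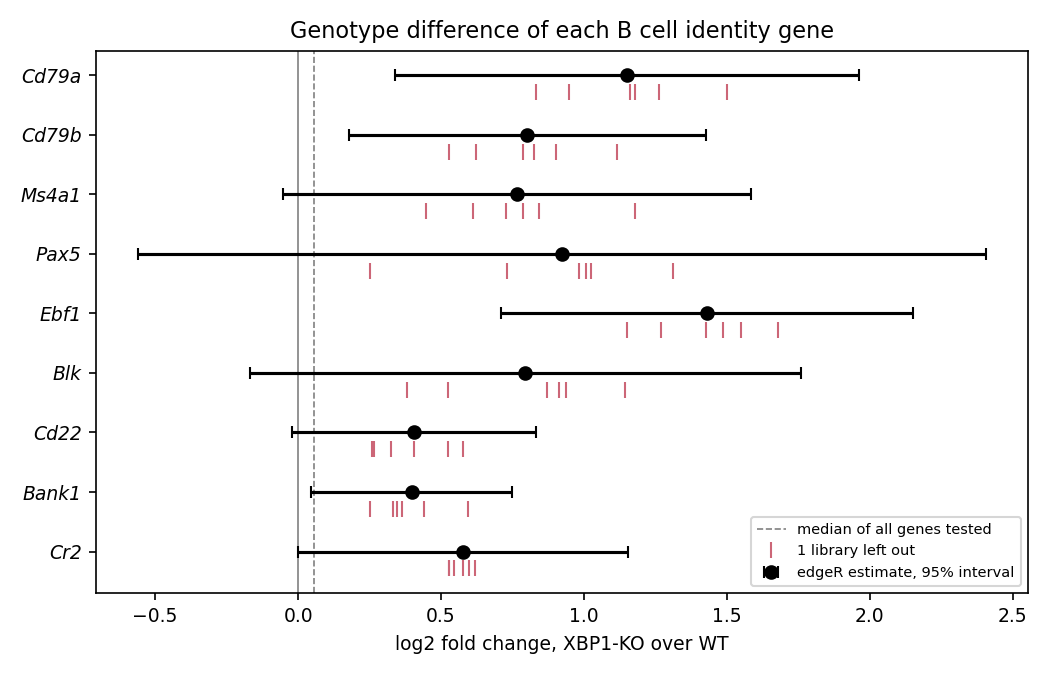
Log2 fold changes of XBP1-KO over WT (x axis) are shown for each B cell identity gene, as the edgeR estimate with its 95% interval (black) and as the estimates with 1 library left out (red ticks). The 9 estimates lie between 0.40 (Bank1) and 1.43 (Ebf1), and the intervals of Ms4a1, Pax5, Blk and Cd22 include 0.

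Levels per length set the members in order. In CPM per kilobase of the longest coding transcript in GENCODE M21, the WT means were 50.9 for Cd79b, 31.7 for Cd79a, 22.0 for Ms4a1 and 15.8 for Bank1. They were 5.67 for Cd22, 2.72 for Blk, 0.506 for Cr2, 0.407 for Ebf1 and 0.0465 for Pax5. The WT ranges of neighbours overlapped from Cd79b to Bank1 and between Cr2 and Ebf1, and did not overlap elsewhere. In XBP1-KO the means were 88.8 for Cd79b, 70.4 for Cd79a, 37.4 for Ms4a1, 20.8 for Bank1, 7.50 for Cd22 and 4.72 for Blk. They were 1.10 for Ebf1, 0.755 for Cr2 and 0.0879 for Pax5, so Ebf1 stood above Cr2 there. The lengths assume the longest transcript, and the isoforms in these cells are not given.

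Across the 6 libraries XBP1-KO c held the highest value of 8 members and WT b the lowest of 6. Each member was set against the mean log2 CPM of the other 8. Pearson's r was 0.98 for Cd79a and Cd79b, 0.95 for Ms4a1, 0.94 for Bank1 and 0.87 for Blk. It was 0.82 for Cd22, 0.74 for Cr2, 0.71 for Ebf1 and 0.54 for Pax5. The r is a description over 6 libraries that share a genotype in groups of 3. Of 13289 other genes with a mean of at least 1 CPM, the 5 whose log2 CPM followed the mean of the members most closely were Ly6a, Uchl3, Pou2af1, Tceb1 and Srsf1, with r between 0.985 and 0.994. Ly6a encodes the surface antigen Sca-1, and Pou2af1 is the B cell coactivator of octamer-binding factors. Of the 5 only Pou2af1 is on a B lineage list used here, and the others are on no list. Picked as the closest of 13289 genes over only 6 libraries, such genes can show a high r without any link to B cells. Pou2af1 had 5.40, 2.73 and 3.54 CPM in WT and 8.89, 7.93 and 10.8 CPM in XBP1-KO. Its groups did not overlap, and its adjusted p in edgeR was 0.0789.

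Other genes of the B lineage were read from a list of 27, all of which were tested. Of these, 22 had a log2 fold change above 0 and 5 below, where 56.1% of the genes tested lay above 0. In edgeR 0 passed, and 8 had groups that did not overlap, with XBP1-KO above, which held for 8.8% of the genes tested. At an unadjusted p under 0.05 there were 8 higher and 1 lower, against 4.59% and 8.26% of the genes tested. The median log2 fold change of the 27 was 0.32. Ikzf3, which encodes the lymphoid factor Aiolos, averaged 7.92 ± 2.16 CPM in WT against 18.0 ± 4.43 in XBP1-KO (SD, n = 3; adjusted p of 0.0572). The 2 genes of the list with the highest levels, H2-Ob and Mef2c, are also expressed outside B cells and had log2 fold changes of -0.08 and -0.04. Fcrla, a B cell protein related to Fc receptors, went the other way, with 30.5, 46.2 and 22.1 CPM in WT and 21.4, 21.2 and 22.3 CPM in XBP1-KO (adjusted p of 0.285). Ikzf3 and Fcrla were named after their values were seen. DESeq2 called 3 genes of this list in either direction and limma-voom 0. Over all genes DESeq2 called 473 of the 12243 to which it gave an adjusted p, 365 of them lower. limma-voom called 47 of 15958.

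Genes of B cell receptor signalling lay mostly below 0. Of 25 tested, 20 had a log2 fold change below 0 and 5 above, with a median of -0.15. In edgeR none passed. At an unadjusted p under 0.05, 7 of the 25 were lower and 0 higher, where 8.26% of the genes tested were lower. For 8 of the 25 every XBP1-KO library lay below every WT library, which held for 10.4% of the genes tested. Ptprc, the phosphatase CD45 of all leukocytes, averaged 1061 ± 67.4 CPM in WT against 763 ± 67.1 in XBP1-KO (SD, n = 3; adjusted p of 0.121). Syk, the kinase that docks on the tails of Cd79a and Cd79b, had 185 ± 9.35 and 139 ± 21.8 CPM, with an adjusted p of 0.208, and was named after its value was seen. Cd81, a tetraspanin that many cell types express, had 679 ± 208 and 564 ± 148 CPM. Most of these genes are also used by myeloid cells, and their level is not a measure of B cells alone. Here too DESeq2 called 3 genes in either direction, against 473 of 12243 over all genes, and limma-voom 0.

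Markers of other B lineage stages gave no call in edgeR. Of all genes tested 56.1% lay above 0, and at an unadjusted p under 0.05 4.59% were higher and 8.26% lower. Of 10 plasma cell genes, 5 lay above 0 and 5 below, with a median of 0.02, and at an unadjusted p under 0.05 there was 1 in each direction. Beyond edgeR, DESeq2 called 1 plasma cell gene, 1 of B-1 and marginal zone B cells and 0 of the other B lineage stages. These calls are in either direction, against 473 of 12243 over all genes, and limma-voom called 0 in each. Slamf7 and Irf4, the 2 with the highest levels, are also expressed by dendritic cells and had log2 fold changes of -0.11 and -0.52. Igj, the joining chain of secreted antibody, had 25.7, 21.4 and 5.58 CPM in WT and between 8.67 and 11.9 CPM in the XBP1-KO libraries, with overlap (adjusted p of 0.563). Of 16 immunoglobulin symbols only Igj and Ighg1 matched a row, and Ighg1 had at most 20 counts in a library. Of 6 tested genes of early B progenitors 4 lay above 0, 1 of them at an unadjusted p under 0.05, and Il7r, the receptor of interleukin-7, had a log2 fold change of -0.09. Cd93, also found on myeloid cells, had 0.74 with an interval from -0.74 to 2.22. Of 7 tested genes of B-1 and marginal zone B cells 4 lay above 0, and 2 were lower at an unadjusted p under 0.05. Cd1d1, which presents lipids and is not restricted to B cells, averaged 122 ± 3.31 CPM in WT against 79.7 ± 27.1 in XBP1-KO (SD, n = 3; adjusted p of 0.228), and Plscr1 had a log2 fold change of 0.23.

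**Figure D4:**
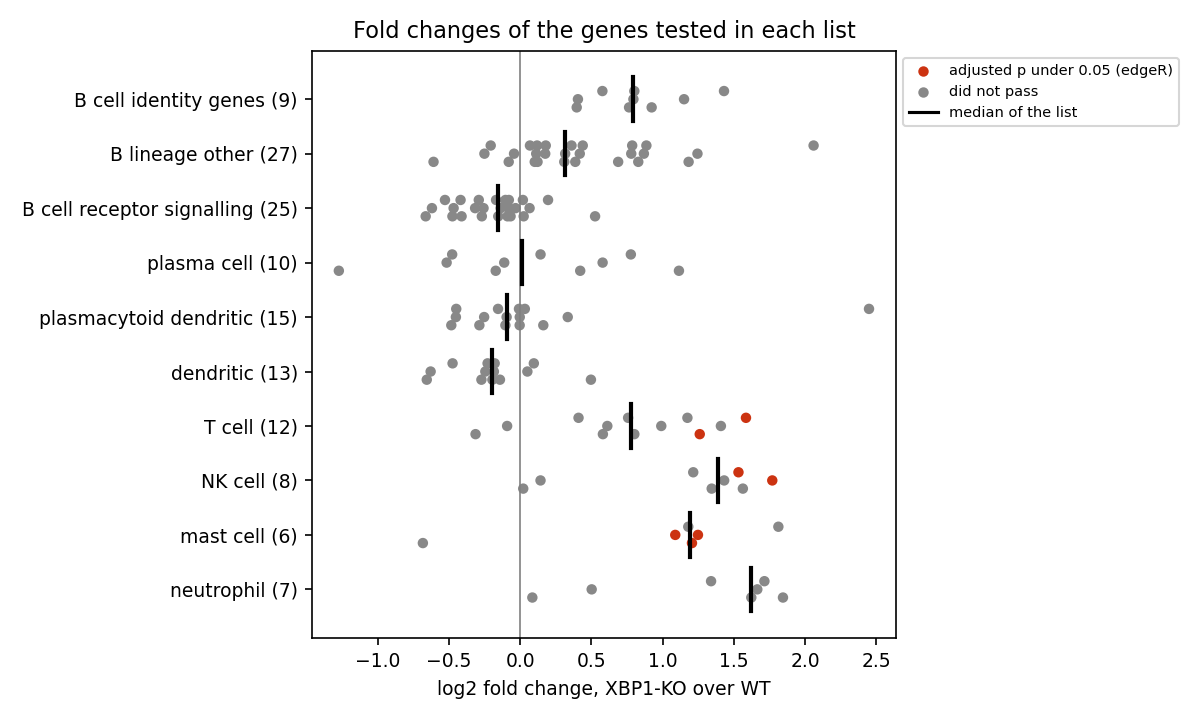
Each point is the log2 fold change of a tested gene, XBP1-KO over WT (x axis), by list (y axis, number of genes tested in brackets), with the median of the list as a black bar and genes past an adjusted p of 0.05 in edgeR in red. The medians are 0.80 for the B cell identity genes, 0.32 for other B lineage genes and -0.15 for receptor signalling, while T cell, NK cell, mast cell and neutrophil markers have medians from 0.78 to 1.62.

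Markers of other lymphocytes and granulocytes mostly lay higher in the XBP1-KO libraries, and their part in the result for the B cell genes was not tested. No listed marker with a row in the table was at 0 in every library. Over all genes tested 56.1% lay above 0, 0.157% were called higher and 4.59% were higher at an unadjusted p under 0.05. At that p 8 of 12 T cell, 6 of 8 NK cell and 5 of 6 mast cell genes were higher, and 1 mast cell gene lower. Groups did not overlap, with XBP1-KO above, for 7 T cell, 4 NK cell, 4 mast cell and 3 neutrophil genes, against 8.8%. For 1 T cell and 1 mast cell gene XBP1-KO lay below. Of 12 T cell genes 10 lay above 0 and Cd3e and Lck rose, with a median of 0.78 and a summed level of 123 to 163 CPM in WT and 204 to 228 CPM in XBP1-KO. Of 8 NK cell genes 8 lay above 0 and Nkg7 and Ncr1 rose, with summed levels of 159 to 212 and 212 to 337 CPM. Of 6 mast cell genes 5 lay above 0 and 1 below, and Cma1, Cpa3 and Tpsb2 rose, with summed levels of 113 to 177 and 136 to 188 CPM. The gene below 0 was Kit, a growth factor receptor of mast cells and the list's most abundant gene, which averaged 102 ± 35.5 CPM in WT against 63.5 ± 5.99 in XBP1-KO (SD, n = 3; adjusted p of 0.209). Of 7 neutrophil genes 7 lay above 0 and 0 passed, with 1 at an unadjusted p under 0.05 and summed levels of 121 to 291 and 352 to 530 CPM. Leaving out 1 library changed which of these genes passed: without WT c or without XBP1-KO a, 0 genes of the 4 lists did. Without WT a 1 mast cell and 1 neutrophil gene passed, and without WT b 1 T cell, 1 NK cell and 1 neutrophil gene. Without XBP1-KO b 2 T cell, 1 NK cell and 4 mast cell genes passed, and without XBP1-KO c 2 T cell and 2 NK cell genes. The log2 fold changes of the called genes moved less: with any 1 library left out they stayed between 1.38 and 1.83 for Cd3e, 1.02 and 1.36 for Lck, 1.53 and 1.95 for Nkg7, and 1.23 and 1.77 for Ncr1. They stayed between 1.02 and 1.38 for Cma1, 0.89 and 1.35 for Cpa3, and 0.83 and 1.22 for Tpsb2.

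The summed neutrophil level was 291, 139 and 121 CPM in WT a, b and c and 434, 352 and 530 CPM in XBP1-KO a, b and c. That is the order of the summed B cell identity genes apart from the 2 lowest WT libraries, b and c, which change places. The summed mast cell level was highest in XBP1-KO c too, at 188 CPM, with WT b next at 177 CPM. The summed T cell level was highest in XBP1-KO b, at 228 CPM, where the summed B cell identity genes were lowest of the XBP1-KO group. Of the most abundant genes of these lists, Retnlg and S100a8 of neutrophils had log2 fold changes of 1.62 and 1.84 (adjusted p of 0.304 and 0.433). The values were 0.41 for Cd2 of T cells, and 0.02 for Klrk1 and 0.14 for Klrb1c of NK cells.

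Cells that share part of the B cell programme were read as well. Of 15 plasmacytoid dendritic cell genes 4 lay above 0 and 11 below, with a median of -0.09, no call in edgeR, 1 gene in each direction at an unadjusted p under 0.05 and summed levels of 263 to 322 CPM in WT and 254 to 348 CPM in XBP1-KO. DESeq2 called 1 gene of this list in either direction, against 473 of 12243 over all genes, and limma-voom 0. Tcf4, their lineage factor, had 83.6 ± 1.28 and 85.6 ± 12.8 CPM, and Upb1 had a log2 fold change of -0.29. Of 13 dendritic cell genes 10 lay below 0 and 0 passed in edgeR, with 1 in each direction at an unadjusted p under 0.05 and summed levels of 75488 to 122580 and 70544 to 100263 CPM. H2-Aa, a chain of MHC class II, had a log2 fold change of -0.19. Of 13 macrophage and monocyte genes 8 lay above 0, and Itgam fell, a call that ended without any library other than XBP1-KO b, with summed levels of 15096 to 25532 and 18612 to 22469 CPM. With any 1 library left out the log2 fold change of Itgam stayed between -1.07 and -0.80. Lyz2, the lysozyme of myeloid cells, had a log2 fold change of -0.18, and C1qb, a chain of complement C1q, of 0.17. Ebf1 is also expressed by stromal cells: of 6 tested stromal genes 3 lay above 0 and 0 passed in edgeR. Among them 1 was higher at an unadjusted p under 0.05, with groups that did not overlap, while the median log2 fold change of the 6 was 0.01. The stromal genes had summed levels of 41.9 to 46.9 and 43.9 to 64.8 CPM, of which Dcn, the proteoglycan decorin, took most. The log2 fold changes were 0.21 for Dcn and 0.12 for Pdgfra, a growth factor receptor of fibroblasts. Of 8 epithelial genes of the tumour or mesothelium 5 lay above 0 and 0 passed, also at an unadjusted p under 0.05, with summed levels of 127 to 170 and 107 to 189 CPM. The keratin genes Krt19 and Krt18 had -0.16 and 0.18 on the log2 scale.

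For Ms4a1, Pax5, Ebf1, Cd22 and Bank1 GENCODE M21 lists an antisense or other transcript on the opposite strand. Whether reads were counted by strand is not given in the sources used here, so reads of such partners cannot be told apart from those of the member. The annotation behind the deposited counts may differ from it.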

How the data were processed

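The deposited table holds whole-number counts per gene symbol, which the authors left unnormalised. RSEM, edgeR and the build mm9 are named in the submitters' processing notes, with no role or version, and how the counts became whole numbers is not given in the sources used here. A second deposited table with CPM of the same libraries was not used. The genotypes were compared on these counts by edgeR 4.0.16 under R 4.3.3 (filterByExpr, TMM, robust glmQLFit, two-sided glmQLFTest of genotype), with Benjamini-Hochberg adjustment over 15958 genes and a threshold of 0.05. The SE is the fold change over the square root of F. The spread between libraries (a coefficient of variation of 0.25) limits precision, and counting error matters most for Pax5. Libraries of a genotype differed by more than sampling noise (chi-square per degree of freedom of 22.5 to 74.5). The test was checked on simulated counts.

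The members and the 15 other lists were chosen with earlier results of these data known. Of 194 listed symbols 174 matched a row, directly or by an unambiguous synonym in RefSeq. Named were the 9 members, Xbp1, and of each list the 2 genes with the highest level and up to 4 called genes. The 5 genes most like the members, by Pearson's r of log2(CPM + 0.5), were named too. Genes named outside this rule (Ikzf3, Fcrla and Syk) are marked as such. The alternatives were DESeq2 1.42.0, limma-voom (limma 3.58.1), other scalings, other filters and leaving out each library. A gene of these lists is not reported here.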

Additional observations from a re-analysis of the deposited data

How the results depend on the processing

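Over 15 alternatives the log2 fold change of every member stayed above 0 wherever the member was tested. Ms4a1, Pax5, Blk, Cd22, Bank1 and Cr2 passed in none of them, and Pax5 had an adjusted p in only 13. With DESeq2, 473 genes changed, among them 3 members: Cd79a (log2 fold change 1.14, adjusted p of 0.0029), Cd79b (0.79, 0.0399) and Ebf1 (1.43, 0.00334). It also called 3 other B lineage genes, 3 of receptor signalling, 1 of plasma cells and 1 of B-1 and marginal zone cells. With a term for libraries WT b and XBP1-KO b, added after seeing the data, 426 genes changed, among them 3 members: Cd79a (1.23, adjusted p of 0.0154), Cd79b (0.85, 0.0296) and Ebf1 (1.42, 0.0473). It called 2 other B lineage genes, 3 of receptor signalling, 1 of plasma cells and 1 of B-1 and marginal zone cells. With those 2 libraries left out 70 genes changed and 0 members passed. With no filter on low counts 252 genes changed, among them 1 member, Ebf1 (1.42, 0.0261), 2 other B lineage genes and 1 of receptor signalling. A filter at a CPM of 1 in 2 libraries called 1 other B lineage gene. limma-voom called 47 genes, library size alone 25, and neither called a member. The cause of these differences was not tested. With 1 library left out between 5 (without WT c) and 154 (without XBP1-KO b) genes changed, 0 members passed, and 0 to 1 other B lineage genes did. The summed level of the members was higher in XBP1-KO by 136.7 CPM (without WT b) to 245.3 CPM (without WT a), against 192.1 CPM with every library. No paired analysis was possible because the columns carry no replicate number. Depth limits Pax5 most, with 7 to 40 counts in a library. Counts were also low for Ebf1, with 42 to 91 in a WT library, and for Blk, with 67 in WT b.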
